A study of Mus musculus with 16 samples.

Results

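The genes analyzed here are 40 genes of DNA double-strand break (DSB) repair, chosen by name and not by their levels. They were found by matching the gene identifiers of the deposited counts to symbols, among 51912 listed genes, and 38 of the 40 had a count in at least 1 library. *Atrip* and *Rnf8* were listed at 0 in every library. So were *Sox2* and *Tubb3*, genes that cortical progenitors and neurons use, and the 0 of *Atrip* and *Rnf8* is therefore given only as listed. RNA-seq counts with unique molecular identifiers (UMIs) were available from the embryonic day (E)15.5 cerebral cortex of 15 mice in 16 libraries. Which mouse gave 2 libraries is not in the labels. Libraries S2 and S2b, alike in name, litter, batch and sex, were taken to be that mouse and added together, since their counts differed by close to the sampling noise (chi-square of 1.14 per degree of freedom). The 7 ctrl mice had no conditional knockout, 5 being wild type and 2 (T4 and T5) heterozygous for *Knl1*, which the labels call Casc5. In the 4 cKO mice *hGFAP-Cre* deletes *Knl1*, a kinetochore gene of the spindle assembly checkpoint, and in the 4 dKO mice it deletes both *Knl1* and *Trp53*. The labels do not give the *hGFAP-Cre* status of the ctrl mice. The Cre line acts in cortical NPCs (neural progenitor cells), so vessels, microglia and neurons that migrate in from outside the cortex keep both genes. Whole cortices were lysed, and fewer cells of a type cannot be told apart from less RNA per cell.

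Cells rejoin a broken chromosome in several ways. In homologous recombination the broken ends are resected to single strands, and the BRCA proteins and further factors then direct copying from the intact sister chromatid, so that this route serves cells in S and G2 phase. End joining holds the ends with the Ku heterodimer and seals them with XRCC4 and DNA ligase IV, and it works in any phase, including in postmitotic neurons. In the embryonic cortex both routes protect dividing NPCs, and the loss of either is known to kill neural cells through p53.

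The mice came from 4 litters and 3 batches. Litter 1 held ctrl mice 2 and 6 and cKO mice 5 and 7, and litter 2 held ctrl mice S1 and S3 and cKO mouse S2. Litter 3 held ctrl mice T3, T4 and T5 and dKO mice T2 and T8, and litter 4 held cKO mouse F3 and dKO mice F1 and F7. Litters 3 and 4 made up batch 3, S1 was the only mouse of batch 2, and the others were batch 1. A ctrl mouse had 399832 to 3266227 counts, a cKO mouse 4178461 to 8800987 and a dKO mouse 552186 to 5396803. Every cKO mouse was thus more deeply sequenced than every ctrl mouse. Before the TMM scaling described next, 3 counts stood for 7.50 CPM in the shallowest mouse and 0.341 CPM in the deepest, which covers counting error only. Levels are given as CPM, the usual depth-normalized read count (a gene's counts in proportion to the total of its library), after scaling by the trimmed mean of M values (TMM) over the 15 mice. *Knl1* itself ranged from 48.7 to 80.0 CPM across ctrl mice, from 50.0 to 80.4 across cKO mice and from 33.4 to 58.2 across dKO mice, and *Trp53* from 15.6 to 47.0, 24.0 to 33.3 and 19.8 to 32.3 CPM. The counts cover the whole of each gene in all cells, so that they do not check the deletion.

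The 38 counted genes spanned a wide range of levels. Their median was 27.1 CPM over all mice, 31 of the 38 were at 10 CPM or more, and the lowest, *Xrcc3*, was at 4.31 CPM. Genes can be compared with each other only per length, taken here as exon length. Whether intron reads were counted is not given in the sources used here. If they were, this scale raises genes with long introns. On that scale *Rad51b*, a homologous recombination gene with 3757 exon bases in a span of 517 kb, was highest at 21.9 CPM per kb of exon. Next came *Xrcc5*, which encodes the Ku80 subunit, at 17.8 CPM per kb, and *Xrcc4*, the partner of DNA ligase IV, at 16.1 CPM per kb. No other gene was above 7.15 CPM per kb, the level of *Rnf168*, a ubiquitin ligase that marks chromatin at breaks. The lowest was *Palb2*, which bridges BRCA1 and BRCA2, at 0.878 CPM per kb. Within the role groups the highest per kb were *Bard1* (4.19, the partner of BRCA1) among the BRCA complex and mediators, *Nbn* (6.89, of the MRN complex that detects broken ends) among resection factors and helicases, and *Fancl* (7.08, the ubiquitin ligase of the Fanconi core complex) in the Fanconi anemia pathway. In CPM the highest of each group were *Brca1* at 35.2, *Rad51b* at 82.3, *Blm* at 47.8, *Fancm* at 39.7, *Xrcc4* at 67.8 and *Topbp1* at 62.9.

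**Figure D1:**
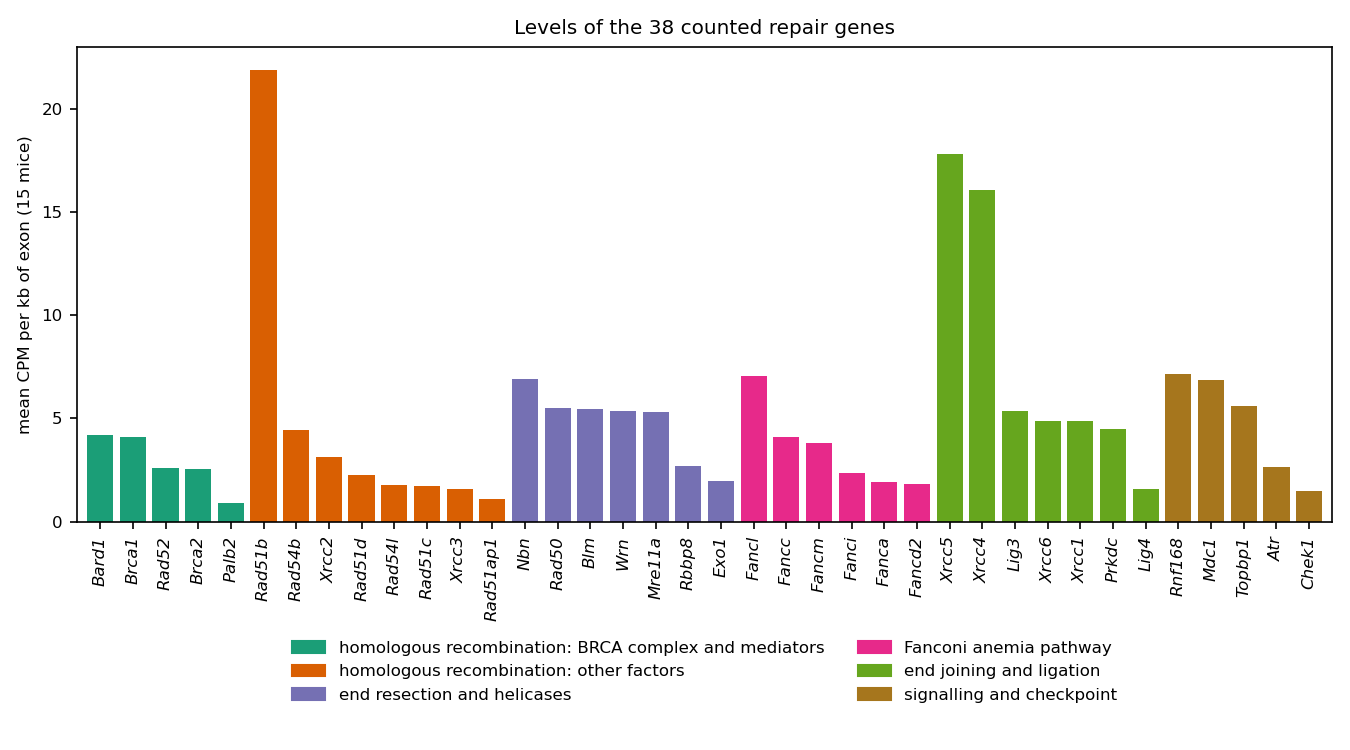
Mean level of each of the 38 counted genes over 15 mice, in CPM per kb of exon, with genes on the horizontal axis ordered within their role group and colored by it. *Rad51b*, *Xrcc5* and *Xrcc4*, at 21.9, 17.8 and 16.1, stand above all others, which are at 7.15 or below. Intron reads, if they were counted, would raise genes with long introns on this scale.

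Some of these counts share sequence with neighbors. *Rad54b* shares 35.77% of its exon bases with *Fsbp* on the same strand, and *Lig3* shares 25.07% with *Rffl*, *Fancc* 16.43% with *Gm16133*, *Fanci* 15.95% with *Polg* and *Rad54l* 15.36% with *Lrrc41* on the opposite strand. The strand setting of the counting is not given in the sources used here, so the counts of these genes are uncertain to that extent.

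Promoters were read from RefSeq (GRCm38.p6) for 30 of the 40 genes, as the 250 bases before the most upstream start site. They are shown to let the genes discussed below be compared for sequences bound by cell cycle regulators. Both strands were searched for an E2F motif (the letters TTTGGCGC or else TTTCCCGC, and likewise TTTGCCGC and also TTTCGCGC), for CHR, the element of G2 and mitosis genes (the letters TTTGAA or else TTCGAA, and also TTTAAA), and for CCAAT, the core bound by NF-Y. An E2F motif was in 5 of the 30 promoters (16.7%), against 1.92% of 27025 promoters in the table. The 5 genes were *Bard1*, *Brca2*, *Mdc1*, *Topbp1* and *Xrcc6*. CHR was in 6 of the 30, against 26.6% of all, and CCAAT in 15 (50.0%), against 34.5% of all. Of the genes linked to S and G2 phase that are listed further on, 9 had a promoter. E2F was in 2 of these 9, CHR in 1 and CCAAT in 5, and in 3, 5 and 10 of the 21 others. A match is a description of the letters only. The 4 genes with the smallest p in cKO versus ctrl that hold a motif are printed first, then *Lig4*, which holds none, and *Brca2*, added after the values were seen as an example with an E2F motif. Sequences run 5′ to 3′ along the gene, and capitals mark motifs, which read ATTGG for CCAAT and GCGGGAAA for E2F where they lie on the other strand.
Rad51b, chr12:79297032-79297281, plus strand: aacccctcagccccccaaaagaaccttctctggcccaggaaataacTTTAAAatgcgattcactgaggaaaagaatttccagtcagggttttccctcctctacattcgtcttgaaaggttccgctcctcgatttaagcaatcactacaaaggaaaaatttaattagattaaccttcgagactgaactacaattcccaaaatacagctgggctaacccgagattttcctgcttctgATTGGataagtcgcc
Brca1, chr11:101551956-101552205, minus strand: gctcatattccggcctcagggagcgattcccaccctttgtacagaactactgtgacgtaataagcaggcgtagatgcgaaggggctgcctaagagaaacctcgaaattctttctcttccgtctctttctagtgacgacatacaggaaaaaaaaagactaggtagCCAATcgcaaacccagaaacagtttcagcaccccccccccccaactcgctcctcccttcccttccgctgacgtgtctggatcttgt
Xrcc5, chr1:72307171-72307420, plus strand: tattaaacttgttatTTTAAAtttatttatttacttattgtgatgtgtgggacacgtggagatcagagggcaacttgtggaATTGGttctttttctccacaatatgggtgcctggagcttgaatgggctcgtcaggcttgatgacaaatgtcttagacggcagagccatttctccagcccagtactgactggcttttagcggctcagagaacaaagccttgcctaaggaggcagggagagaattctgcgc
Fanca, chr8:123318577-123318826, minus strand: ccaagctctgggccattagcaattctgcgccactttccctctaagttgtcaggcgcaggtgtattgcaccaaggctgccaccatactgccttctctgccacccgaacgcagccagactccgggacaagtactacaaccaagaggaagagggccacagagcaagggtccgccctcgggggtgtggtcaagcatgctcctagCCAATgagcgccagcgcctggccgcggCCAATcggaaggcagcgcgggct
Lig4, chr8:9977681-9977930, minus strand: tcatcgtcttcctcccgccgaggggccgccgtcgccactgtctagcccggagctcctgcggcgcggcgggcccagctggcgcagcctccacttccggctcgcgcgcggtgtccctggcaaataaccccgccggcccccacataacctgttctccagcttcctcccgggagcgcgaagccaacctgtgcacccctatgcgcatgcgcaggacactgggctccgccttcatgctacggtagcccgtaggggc
Brca2, chr5:150522371-150522620, plus strand: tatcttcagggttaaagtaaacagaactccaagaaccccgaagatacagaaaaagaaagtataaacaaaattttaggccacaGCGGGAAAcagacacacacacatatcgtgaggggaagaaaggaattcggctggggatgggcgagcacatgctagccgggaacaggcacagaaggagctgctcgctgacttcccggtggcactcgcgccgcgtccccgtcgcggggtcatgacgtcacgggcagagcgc
In *Rad51b* the capitals are a CHR match beginning 204 bases and a CCAAT match beginning 15 bases before the start, and in *Brca1* a CCAAT match beginning 86 bases before it. *Xrcc5* has a CHR match at 235 and a CCAAT match at 169 bases, and *Fanca* CCAAT matches at 50 and 23 bases. The E2F match of *Brca2* begins 168 bases before the start.

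The first comparison asked whether DSB repair genes changed in cKO, in which *Knl1* is lost and p53 is present. No repair gene reached an FDR below 0.05. The FDR is the Benjamini–Hochberg adjusted p of edgeR's likelihood ratio test over all listed genes. Against this 0 of 38, 0.610% of the 11155 genes at or above the level of *Xrcc3* reached it. At an unadjusted p below 0.05, 2 of the 38 genes were lower (3.80% of the 11155) and 0 were higher (6.56%). DESeq2 and edgeR's quasi-likelihood F test each also gave 2 genes at an unadjusted p below 0.05 and 0 at an FDR below 0.05. The median log fold change, on the log2 scale as all those below, was −0.11 for the repair genes and 0.04 for the 11155 genes. Of the 38 genes, 28 were below 0, with values from −0.43 (*Brca1*) to 0.50 (*Lig4*). For 36 of the 38 genes the 95% interval excluded a 2-fold change in either direction, and for 21 it excluded a 1.5-fold change. These intervals come from the fit without a covariate and do not allow for differences between litters. At the median, an interval reached 0.38 to either side of the estimate. For none of the 38 were the cKO mice all above (0.896% of the 11155 genes) or all below (0.350%) the ctrl mice.

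*Rad51b* was the repair gene with the smallest p. It lies on chromosome 12 of GRCm38 from 79297282 to 79814690, a span of 517 kb. It was at 51.2, 60.8, 110.4 and 49.3 CPM in cKO mice 5, 7, S2 and F3, and in ctrl at a lowest of 68.4, a median of 96.1 and a highest of 109.6 CPM. Of the cKO mice, 3 were below every ctrl mouse and S2 was above every one. Mean levels were 91.1 ± 16.4 CPM (SD) over the 7 ctrl mice and 67.9 ± 28.7 CPM (SD) over the 4 cKO mice, with −0.42 as log fold change (standard error 0.20, edgeR unadjusted p = 0.0361, FDR = 0.889). Without cKO mouse S2 it was −0.76 (edgeR FDR = 0.00122), and no other repair gene reached an FDR below 0.05 when any 1 mouse was left out of a comparison of genotypes. Without S2, 8 of the 38 genes were lower at an unadjusted p below 0.05, against 6.06% of the 11155 genes in the same fit, and the median was −0.18 over the 38 and 0.03 over the 11155. At an FDR below 0.05 the 1 gene of 38 stood against 1.41% of the 11155 genes lower in that fit. *Brca1*, the ubiquitin ligase subunit that promotes resection, was at 25.6, 21.3, 38.1 and 27.5 CPM in the cKO mice 5, 7, S2 and F3 and at 21.8 to 57.8 CPM (median 38.4) in ctrl. S2 was again the highest cKO mouse, and the groups overlapped widely. The fitted change was −0.43 (standard error 0.21, edgeR unadjusted p = 0.0443, FDR = 0.996).

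Among the other genes the values were closer to 0 or less certain. *Lig4*, the ligase of end joining, was at 7.92, 8.25, 12.6 and 9.77 CPM in cKO mice 5, 7, S2 and F3 and at 1.68 to 8.86 CPM (median 5.63) in ctrl. Its ctrl counts were low, with 1 count in each of mice 2 and T5. The fitted change was 0.50 (standard error 0.28, edgeR unadjusted p = 0.0692, FDR of 1). *Fancl* was at −0.33 (standard error 0.19), *Xrcc5* at −0.23 (standard error 0.16) and *Rad54b*, a DNA translocase of homologous recombination, at −0.31 (standard error 0.22), each at an edgeR FDR of 1. The medians were −0.09 for the 5 BRCA complex and mediator genes, −0.21 for the 8 other homologous recombination genes, −0.07 for the 7 resection and helicase genes, −0.28 for the 6 Fanconi genes, −0.10 for the 7 end joining and ligation genes and 0.01 for the 5 counted signalling and checkpoint genes. The groups with the lowest medians were therefore these 8 genes and the Fanconi pathway. The members of these groups were all between −0.42 and 0.17. Cell type and proliferation lists also differed between these mice. Log fold changes were below 0 for 19 of 20 G2 and mitosis genes (median −0.19) and 9 of 10 radial glia genes (median −0.24). Of 20 DNA replication genes, 14 were below 0 and 5 above (median −0.12), and 6 of 8 excitatory neuron genes were above 0 (median 0.12). In these lists 0 genes reached an FDR below 0.05, and 4 radial glia genes were lower at an edgeR unadjusted p below 0.05. All 8 interneuron genes were above 0 (median 0.39), 2 of them at an FDR below 0.05. Their summed level was 2952 to 4304 CPM in cKO and 1998 to 2578 CPM in ctrl. Most of this was *Erbb4*, at 2162 to 3419 CPM in cKO and 1425 to 1997 CPM in ctrl. By mean log2 CPM over the 8 genes the groups overlapped, at 6.64 to 6.89 in cKO and 5.60 to 6.95 in ctrl. All 8 intermediate progenitor genes were below 0 (median −0.42), 2 of them at an FDR below 0.05. Their sum was 356 to 510.3 CPM in cKO and 462 to 565 CPM in ctrl. Within it, *Elavl4* alone was at 250 to 319 CPM in cKO and 277 to 345 CPM in ctrl. *Eomes* was at 28.2 to 48.9 CPM in cKO and 51.4 to 98.1 CPM in ctrl, without overlap. The part of these lists in the levels of repair genes was not tested.

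**Figure D2:**
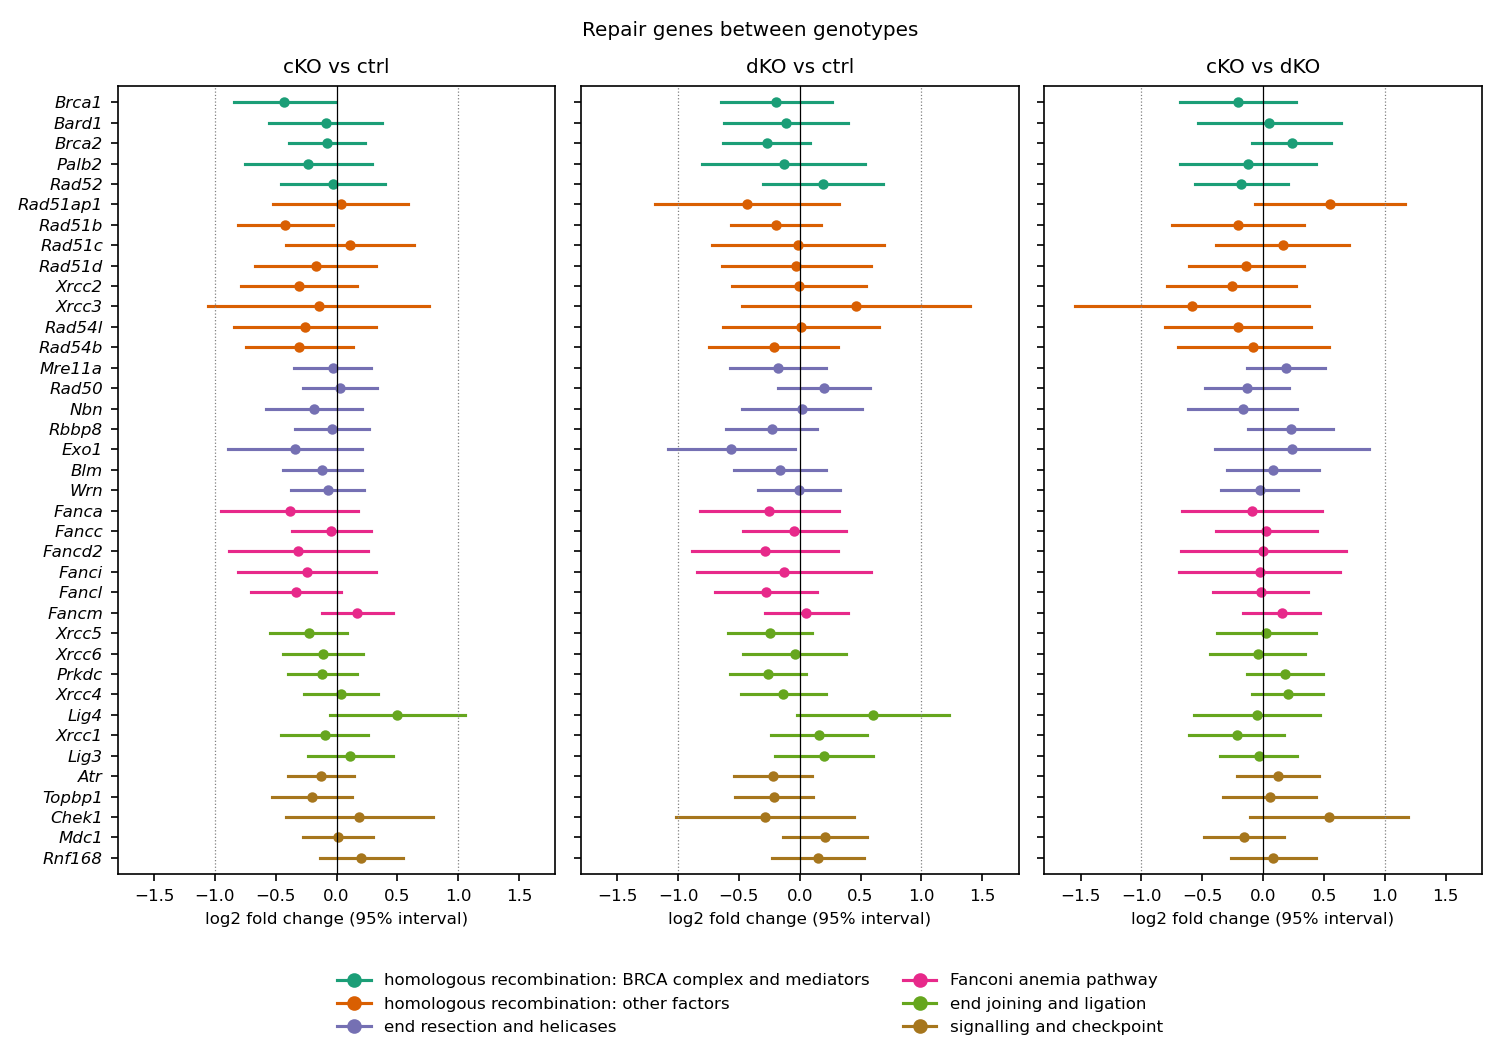
Log2 fold change (point) with its 95% interval (line) for the 38 counted genes in each of the 3 comparisons between genotypes, colored by role group, with dotted lines at a 2-fold change. The points lie within 0.61 of 0 in every panel, and the intervals reach or cross 0 for all but *Rad51b* and *Brca1* (cKO vs ctrl) and *Exo1* (dKO vs ctrl).

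The dKO mice answered the same question where p53 is lost as well. All 4 came from batch 3, with 3 of the 7 ctrl mice, and this comparison shares its ctrl mice with the previous one. Again 0 of 38 repair genes reached an FDR below 0.05 (0.188% of the 11155 genes). At an unadjusted p below 0.05, 1 gene was lower (2.32% of the 11155) and 0 were higher (3.44%). DESeq2 gave 0 genes at that unadjusted p and the quasi-likelihood F test 1. The median log fold change was −0.13, and 0.02 over the 11155 genes, and 27 of the 38 genes were below 0. Without dKO mouse F7 the median of the 38 was 0.00031. Without dKO mouse T8 it was −0.24, with 4 genes lower at an unadjusted p below 0.05 (3.90% of the 11155 genes in that fit) and 0 higher (5.07%). Within batch 3, 5 genes were lower (2.59%), 4 of them among the 13 linked to S and G2 phase described further on, and 1 was higher (5.12%), with a median of −0.19 (0.05 over the 11155 genes). There 0 reached an FDR below 0.05 (0.170% of the 11155 genes higher and 0.0448% lower). In the same dKO and ctrl mice, 7 of 8 intermediate progenitor genes were below 0 (median −0.45), as were 16 of 20 G2 and mitosis genes (median −0.17), and 6 of 6 endothelium genes were above 0 (median 0.33), with 0 of these genes at an FDR below 0.05 and 3 intermediate progenitor and 2 G2 and mitosis genes lower at an unadjusted p below 0.05. Summed over each list, intermediate progenitor genes were at 383 to 479 CPM in dKO and 462 to 565 CPM in ctrl, G2 and mitosis genes at 700.1 to 1268 and 711 to 1382 CPM, and endothelium genes at 79.6 to 171 and 65.0 to 119 CPM, with T8 the highest. Their part in the levels of repair genes was not tested. The 95% interval excluded a 2-fold change for 33 of the 38 repair genes. The gene lower at an unadjusted p below 0.05 was *Exo1*, the exonuclease of long-range resection. It was at 16.6, 13.9, 13.6 and 10.9 CPM in T2, T8, F1 and F7, and in ctrl at 11.8 to 26.3 CPM (median 22.2). F7 was below every ctrl mouse, the other 3 dKO mice lay in the lower part of the ctrl range, and ctrl mice 2, 6 and T3 fell between dKO values. The fitted change was −0.56 (standard error 0.27, edgeR unadjusted p = 0.0359, FDR of 1). *Lig4* was at 9.95, 13.9, 10.3 and 8.93 CPM in T2, T8, F1 and F7, all above the highest ctrl mouse at 8.86 CPM. It was the 1 gene of 38 (2.63%) whose dKO mice were all higher, against 0.341% of the 11155 genes, and for 0 were they all lower (0.341%). The margin to ctrl mouse 6 was small, its log fold change came to 0.60 (standard error 0.32, edgeR unadjusted p = 0.0558, FDR of 1), and the two-sided exact permutation p on log2 CPM was 0.0424 (0.655 adjusted over the 63 such tests made). *Prkdc*, the kinase of end joining (−0.26, standard error 0.16), *Brca2*, a mediator of homologous recombination (−0.27, standard error 0.18), *Xrcc5* (−0.24, standard error 0.18) and *Atr*, the kinase that answers single-stranded DNA (−0.22, standard error 0.16), were next, each at an edgeR FDR of 1.

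Between cKO and dKO, which differ in *Trp53* among the labelled alleles, 0 of 38 repair genes reached an FDR below 0.05 (0.117% of the 11155 genes). At an unadjusted p below 0.05, 0 were lower (1.34%) and 0 higher (2.73%), and neither DESeq2 nor the quasi-likelihood F test gave any. The median log fold change was −0.02, against 0.05 over the 11155 genes, with 20 genes below and 18 above 0. The 95% interval excluded a 2-fold difference for 35 of the 38. The smallest p belonged to *Rad51ap1*, of homologous recombination, at 6.50, 6.50, 7.28 and 5.00 CPM in cKO mice 5, 7, S2 and F3 and 4.97, 4.62, 5.43 and 3.49 CPM in dKO mice T2, T8, F1 and F7. Only F3 was within the dKO range. The fitted change was 0.55 (standard error 0.31, edgeR unadjusted p = 0.0745, FDR of 1). The checkpoint kinase gene *Chek1* (0.54, standard error 0.33) and *Xrcc3*, of homologous recombination (−0.58, standard error 0.49), had wide intervals, and both turned to the other sign, −0.23 and 0.07, when only the cKO and dKO mice of batch 3 were compared. *Brca2* (0.23), *Xrcc4* (0.20) and *Rbbp8*, which starts resection (0.23), were the other 3 of the 6 genes with the smallest p, each at an edgeR FDR of 1. The cKO mice were all above the dKO mice for 1 gene (2.63%), *Brca2*, with 33.6 to 41.1 against 29.7 to 33.3 CPM (2.90% of the 11155 genes), and all below for 1 gene, *Rad52*, with 13.4 to 16.2 against 16.6 to 16.9 CPM (0.968%). All dKO mice were of batch 3, and F3 was the only cKO mouse of that batch, so *Trp53* status and batch largely coincide here. Batch 1 holds no dKO mouse, so with batch as a covariate the estimate rests on F3 alone against the dKO mice. In that fit the median of the 38 genes was −0.12 (0.04 over the 11155 genes), with 25 below 0.

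Several repair genes stood at different levels in different litters. *Rad51b* was at 70.5 and 68.4 CPM in the ctrl mice and 51.2 and 60.8 CPM in the cKO mice of litter 1. In litter 2 it was at 96.1 and 109.6 CPM in the ctrl mice and 110.4 CPM in the cKO mouse. It was between 84.5 and 118 CPM in the 5 mice of litter 3 and between 49.3 and 67.6 CPM in the 3 of litter 4. Litters 2 and 3 were thus above litters 1 and 4 without overlap, whatever the genotype. *Exo1* was at 8.74 to 14.3 CPM in litter 1 and 22.5 to 24.9 CPM in litter 2, ctrl and cKO mice alike, at 13.9 to 26.3 CPM in litter 3 and at 10.9 to 13.6 CPM in litter 4. *Brca1* was at 21.3 to 28.2 CPM in litter 1, 30.9 to 38.4 CPM in litter 2, 41.6 to 57.8 CPM in litter 3 and 21.7 to 33.2 CPM in litter 4. *Xrcc4* did not follow this order, at 52.2 to 77.8, 52.8 to 71.7, 54.7 to 93.2 and 54.9 to 66.1 CPM in litters 1 to 4.

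**Figure D3:**
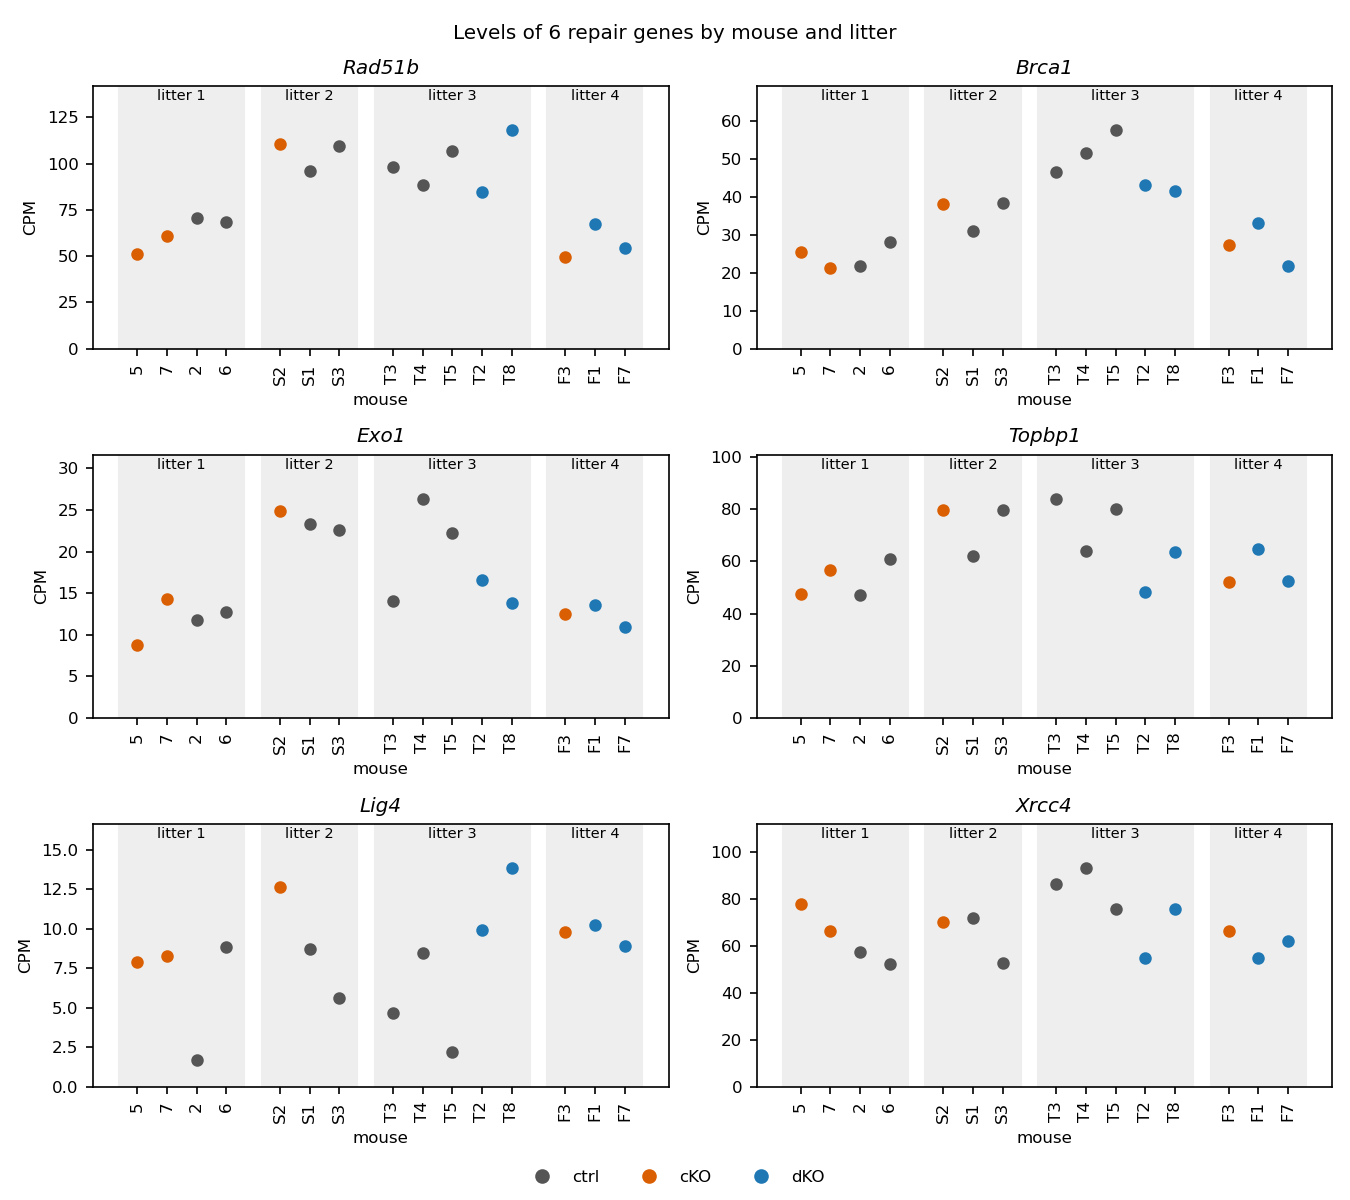
Level in CPM of 6 repair genes in each of the 15 mice, which stand on the horizontal axis grouped by litter (gray bands), with 1 point a mouse colored by genotype. *Rad51b* lies between 84.5 and 118 CPM in litters 2 and 3 and between 49.3 and 70.5 CPM in litters 1 and 4, while *Xrcc4* overlaps between all litters.

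Litter 2 was then compared with litter 1, with genotype as a term, over the 7 mice of these litters. This comparison was chosen after the values had been seen, so its p-values describe these mice. At an edgeR FDR below 0.05, 6 of the 38 repair genes were higher in litter 2 (15.8%, against 2.50% of the 11155 genes), and 0 were lower (2.82%). They were *Rad51b* (0.80, standard error 0.14, edgeR FDR = 2.2e-06), *Exo1* (1.04, standard error 0.22, edgeR FDR = 2.4e-04), *Rad54b* (0.64, edgeR FDR = 0.0245), *Fanci*, which pairs with FANCD2 at blocked forks (0.87, edgeR FDR = 0.0258), *Brca1* (0.57, edgeR FDR = 0.0473) and *Topbp1*, the activator of ATR (0.49, edgeR FDR = 0.0497). The median of the 38 genes was 0.28, against 0.02 over the 11155 genes, and 35 of the 38 were above 0. In 11 of the 38 (28.9%) every mouse of litter 2 was above every mouse of litter 1, against 7.97% of the 11155 genes, and in 0 below (8.41%). The number of calls depended on single mice, for the repair genes and for all genes. Without cKO mouse S2, 0 of the 38 were higher at an FDR below 0.05 (0.780% of the 11155 genes in the same fit) and 4 at an unadjusted p below 0.05 (6.10%), with a median of 0.22. Without ctrl mouse 2 the count at an FDR below 0.05 was 3 (2.48%), without cKO mouse 5 it was 2 (1.22%), without cKO mouse 7 it was 2 (1.61%), without ctrl mouse 6 it was 5 (1.70%) and without ctrl mouse S3 it was 2 (1.18%). Without S1, the mouse of batch 2, so that all mice were of batch 1, it was 7 (2.73%).

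Of the 38 genes, 13 are known to be transcribed mainly in S and G2 phase: *Brca1*, *Brca2*, *Bard1*, *Rad51ap1*, *Rad54l*, *Rad54b*, *Xrcc2*, *Blm*, *Exo1*, *Fanca*, *Fancd2*, *Fanci* and *Chek1*. Between litters 2 and 1 their median log fold change was 0.57, with 4 of 13 at an FDR below 0.05, and it was 0.21 for the other 25, with 2 of 25. Their score, the mean log2 CPM over the 13 genes in a mouse, was 3.78 to 4.06 in litter 1, 4.27 to 4.56 in litter 2, 3.70 to 4.49 in litter 3 and 3.69 to 4.04 in litter 4. Litter 2 was above litters 1 and 4, and litter 3 spanned nearly the whole range. Lists of proliferation genes moved with it. Of 20 G2 and mitosis genes, 15 were higher in litter 2 than in litter 1 at an FDR below 0.05, with summed levels of 1179 to 1382 CPM against 711 to 895 CPM. Of 20 DNA replication genes, 10 were higher, at 636 to 765 against 494 to 572 CPM, *Cdt1* being listed at 0 throughout. Of 10 radial glia genes, 3 were higher, at 631 to 751 against 479 to 708 CPM, and of 8 intermediate progenitor genes 0 were, at 510.3 to 565 against 356 to 509 CPM. Summed microglia and endothelium levels were lower in litter 2, at 9.77 to 14.9 against 18.4 to 30.7 CPM and at 65.0 to 74.3 against 87.3 to 94.5 CPM. So were those of 8 excitatory neuron genes, at 1538 to 1749 against 1800 to 2206 CPM. Of these 8, 6 were below 0, and 1 was lower at an FDR below 0.05. Of 8 interneuron genes, 7 were above 0, and 1 was higher at an FDR below 0.05. Their summed levels overlapped, at 2206 to 2995 against 2313 to 4304 CPM. The part of these lists in the levels of the repair genes was not tested.

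**Figure D4:**
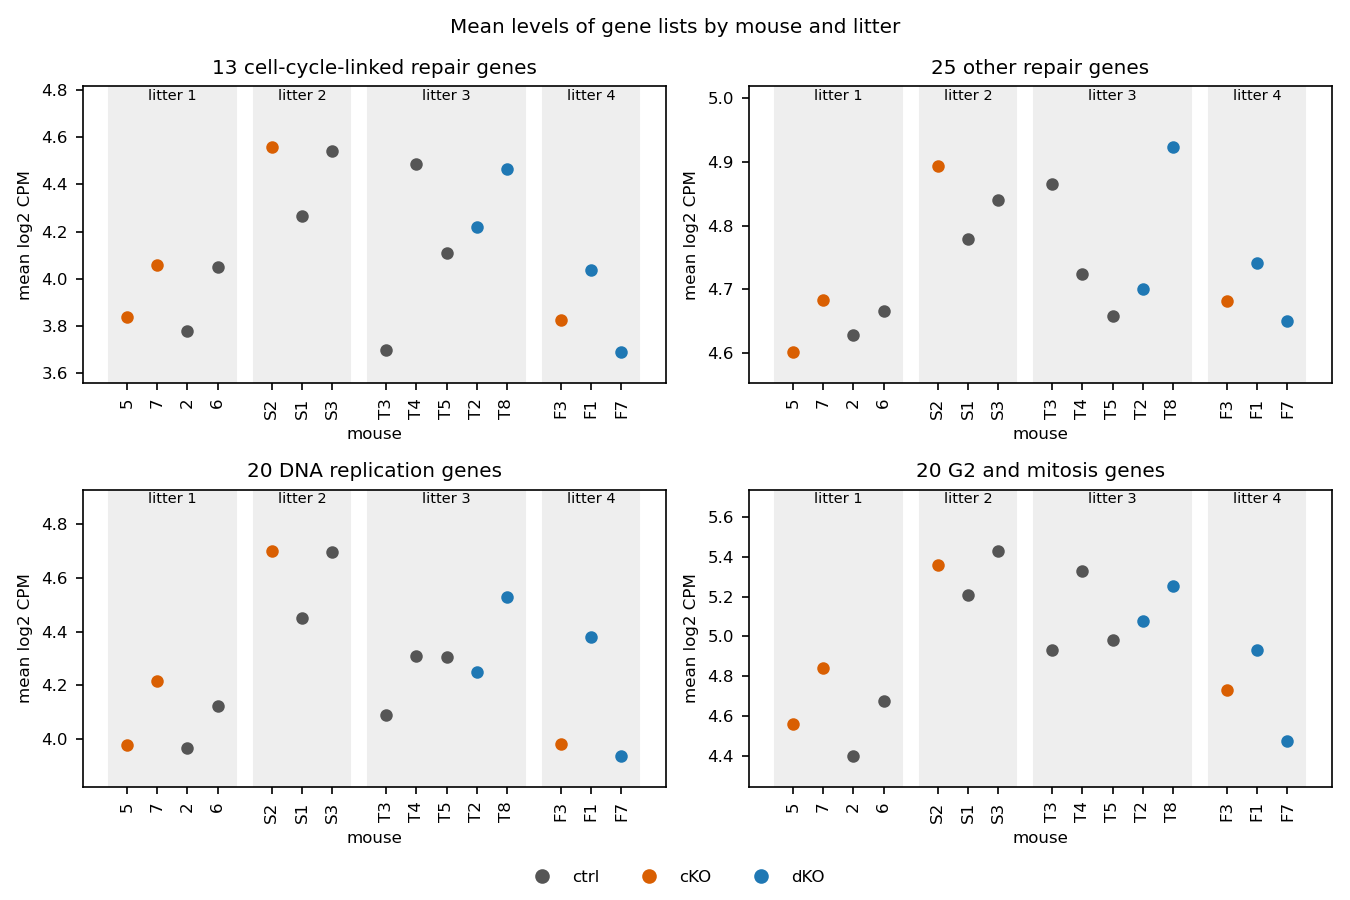
Mean log2 CPM of 4 gene lists in each of the 15 mice, grouped by litter (gray bands) and colored by genotype, with a vertical axis that does not start at 0. The 13 cell-cycle-linked repair genes lie between 4.27 and 4.56 in the 3 mice of litter 2 and between 3.78 and 4.06 in the 4 mice of litter 1, and the replication and G2 and mitosis lists are likewise higher in litter 2.

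Within litters the values of the repair genes lay below those of all genes in litter 1 and above them in litters 2, 3 and 4, by their medians. Differences of mean log2(CPM + 1) between cKO and ctrl were below 0 for 19 and above 0 for 19 of the 38 genes in litter 1, with a median of −0.01 (0.07 over the 11155 genes, 40.4% of which were below 0). In litter 2 they were below 0 for 12 and above for 26, with a median of 0.10 (0.04 over the 11155 genes, 41.6% below 0). In litter 3, dKO minus ctrl was below 0 for 16 and above for 22, with a median of 0.07 (0.04 over the 11155 genes, 45.5% below 0). In litter 4, cKO minus dKO was below 0 for 18 and above for 20, with a median of 0.03 (0.02 over the 11155 genes, 47.2% below 0). With litter as a covariate the median log fold change of cKO versus ctrl was −0.0023 for the 38 genes (0.02 over the 11155 genes) and 0.04 for the 13 cell-cycle-linked genes, against −0.26 for these 13 without it. The number of the 38 below 0 went from 28 to 20, 10 genes turning to above 0 and 2 to below 0. For *Brca1* it was −0.03 and for *Rad51b* −0.12. Litter 3 holds no cKO mouse and litter 4 no ctrl mouse, so with the litter term these estimates rest on litters 1 and 2. Over the mice of litters 1 and 2 alone, without a litter term, the median was −0.04 for the 38 genes and −0.05 for the 13. The shift with the litter term thus also reflects the change of mice. Within batch 1 the median of the 38 genes was −0.04 (0.04 over the 11155 genes). With litter as a covariate 0 of 38 genes reached an FDR below 0.05. *Xrcc4* was then at 0.30 (edgeR unadjusted p = 0.0386), and *Lig4*, at 0.47 (edgeR unadjusted p = 0.0992), kept close to its value without the term. Of the comparisons of dKO, that within litter 3 gave a median of 0.11 (0.03 over the 11155 genes) in place of −0.13.

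**Figure D5:**
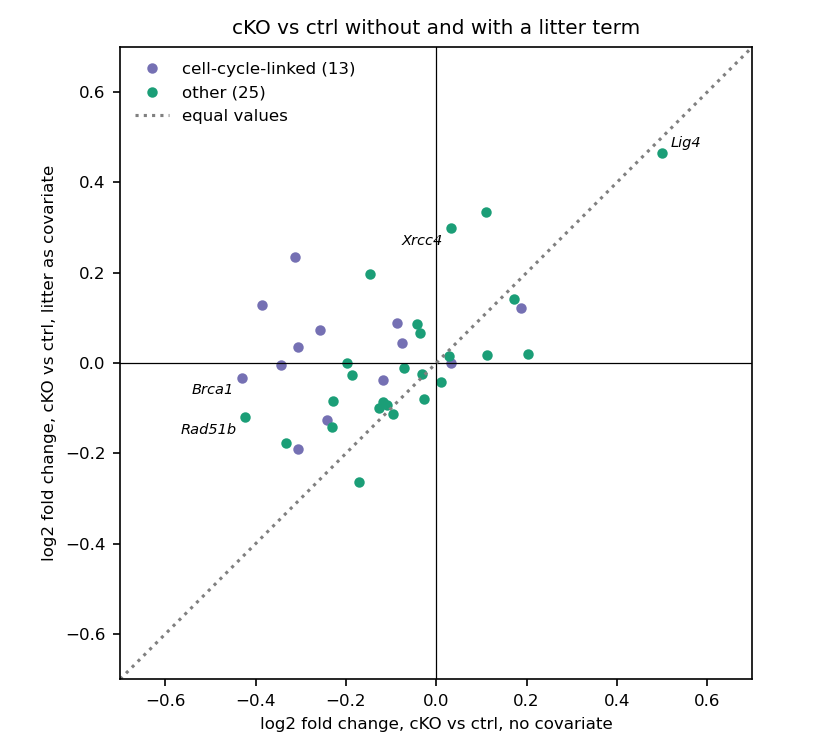
Log2 fold change of the 38 genes in cKO versus ctrl without a covariate (horizontal) and with litter as a covariate (vertical), with the dotted line at equal values. The cell-cycle-linked genes have a median of −0.26 on the horizontal and 0.04 on the vertical axis, and *Lig4* stays near the line at 0.50 and 0.47.

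Other genes of DSB repair, 62 outside the 40, gave a similar picture. In each of the 3 comparisons 0 of them reached an FDR below 0.05, with medians of −0.09 in cKO versus ctrl, −0.06 in dKO versus ctrl and 0.01 in cKO versus dKO. In cKO versus ctrl the smallest p belonged to *Poll*, a polymerase of end joining (−1.13, standard error 0.44, edgeR FDR = 0.566), *Rmi1*, a partner of BLM (0.96, standard error 0.39, edgeR FDR = 0.566) and *Mms22l*, which acts at stalled forks (−0.43, edgeR FDR = 0.920). The ctrl counts were low for *Poll*, at 0 to 12 in a mouse, and for *Rmi1*, at 0 to 10. *Mms22l* was also higher in litter 2 than in litter 1 (0.80, edgeR FDR = 5.1e-07). In dKO versus ctrl *Rmi1* (1.21, edgeR FDR = 0.989), *Mms22l* (−0.51, edgeR FDR of 1) and *Gen1*, a resolvase of joined chromatids (−0.63, edgeR FDR of 1), had the smallest p, and in cKO versus dKO *Rnf169*, a reader of ubiquitin marks at breaks (0.32, edgeR FDR = 0.837).

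Of 10 targets of p53 that answer DNA damage, 2 were higher in cKO than in ctrl at an FDR below 0.05 (0.610% of the 11155 genes in either direction). They were the cell cycle inhibitor gene *Cdkn1a* (1.70, edgeR FDR = 0.00366) and *Ccng1*, of cyclin G1 (0.86, edgeR FDR = 0.0427). The paper already lists both as higher in cKO from these same data. Both were also higher in cKO than in dKO (2.01, edgeR FDR = 4.1e-04, and 1.31, edgeR FDR = 2.7e-05), a comparison that shares the cKO mice, and 0 of the 10 reached an FDR below 0.05 in dKO versus ctrl, where *Polk*, *Ccng1* and *Gadd45a* were at −0.36, −0.45 and 0.82. *Cdkn1a* was at 8.94, 9.50, 6.03 and 7.50 CPM in cKO mice 5, 7, S2 and F3 and at most 4.70 CPM in any ctrl mouse, from 0 to 10 counts. Its mean level over all mice is below that of *Xrcc3*, so it is not among the 11155 genes. *Ccng1* was at 24.2, 25.8, 20.2 and 21.1 CPM in the same cKO mice and at 5.65 to 23.3 CPM in ctrl, so its groups overlapped.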

How the data were processed

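Total RNA of E15.5 mouse cortices was sequenced by the authors as ClickSeq libraries with UMIs, after removal of ribosomal RNA. Per the submitters' processing notes and the paper's methods, reads were trimmed with cutadapt 1.13, aligned to GRCm38/mm10 with STAR 2.5.2a, deduplicated with UMI-tools 0.5.3 and counted per gene with HTSeq 0.6.1p1. The deposited values are whole-number counts per gene and library, not normalized. Lines that HTSeq adds for unassigned reads, between 21.6% and 38.7% of all reads, were left out. Symbols, coordinates and exon lengths came from a GENCODE annotation of GRCm38.

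Libraries S2 and S2b differed by close to the sampling noise (chi-square per degree of freedom 1.14, against 3.56 to 27.4 for other cKO pairs) and were added together as 1 mouse, an inference from the 15 mice that the series' description counts for 16 libraries. For each comparison a model of only the mice compared was fitted in R 4.3.3, using edgeR 4.0.16 (TMM, estimateDisp, glmFit, glmLRT, no filter, no covariate), with Benjamini–Hochberg adjustment over all 51912 listed genes. Standard errors and intervals are Wald values of the same fit, and so do not allow for litter or batch in the comparisons of genotypes. Scores average log2 CPM values to which a prior count of 2 was added. Exact permutation tests are two-sided. The fit was tested on simulated data with known changes. No litter difference was simulated.

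The genes and lists were chosen with earlier results of these data known. Named are the 6 repair genes with the smallest p in each comparison, the highest of each role group in CPM and per kb, and, after their values were seen, the genes called between litters and those whose groups did not overlap. Whether mice are independent is known only from the labels, and litters are shared between them. DESeq2 1.42.0 and the other alternatives are given in the closing section. Plots were made in Python 3.11.15, using matplotlib 3.10.9.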

Additional observations from a re-analysis of the deposited data

Results flagged for a closer look

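In 69 groups of values (21 repair genes and 2 scores, each in ctrl, cKO and dKO) the highest and lowest mouse were compared with the rest by Dixon's criterion, which chance passes in about 1 group in 20, and 4 values passed. *Rad54b* was at 46.7 CPM in ctrl mouse T3, against 19.3 to 30.2 CPM in the other ctrl mice, and at 46.2 CPM in dKO mouse T8, against 15.7 to 18.7 CPM in the other dKO mice. T3 and T8 are littermates. *Brca2* was at 41.1 CPM in cKO mouse S2, against 33.6 to 34.3 CPM in the other cKO mice. *Xrcc3* was at 10.2 CPM in dKO mouse T8, against 3.32 to 4.46 CPM in the other dKO mice, from 11 counts.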

How the results depend on the processing

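The count of repair genes at an FDR below 0.05 stayed at 0 in cKO versus ctrl under all 15 alternatives that kept the mice of the groups or restricted or adjusted for batch, litter, sex or *Knl1* genotype, and was between 0 and 1 when each mouse was left out, the 1 being *Rad51b* at −0.76 without cKO mouse S2. It stayed at 0 in dKO versus ctrl and cKO versus dKO under all alternatives, DESeq2 and the quasi-likelihood F test included. The median log fold change in cKO versus ctrl ran from −0.20 (library totals only) to 0.02 (litters 1 and 2 with litter as a covariate, added after seeing the data), and with a mouse left out from −0.18 to −0.04. In dKO versus ctrl it was 0.11 within litter 3, otherwise at lowest −0.19 (batch 3 only), and −0.24 to 0.00031 with a mouse left out. In cKO versus dKO it was −0.13 to 0.02, and −0.14 to 0.05 with a mouse left out. Among the 6 genes with the smallest p in each comparison, the sign changed in 8 fits: *Rad54b* in cKO versus ctrl with litter as a covariate (0.036, and 0.071 within litters 1 and 2), *Xrcc5* in dKO versus ctrl within litter 3 (0.090), and in cKO versus dKO *Chek1* (−0.23 in batch 3, −0.18 with batch as a covariate) and *Xrcc3* (0.074 in batch 3, 0.39 in litter 4, 0.064 with batch as a covariate). Of all 38 genes, 12 changed sign in cKO versus ctrl with litter as a covariate, a fit whose contrast rests on litters 1 and 2. The cause was not tested. Between litters 2 and 1 the count was 7 with the quasi-likelihood F test and with library totals, and 0 to 7 with a mouse left out. The median was 0.28 with the F test, 0.32 with library totals and 0.22 to 0.30 with a mouse left out. A prior count of 0.5 moved no score difference by as much as the SD between mice. Pairing by replicate number does not apply, since the groups share none, and litter was used in its place. Batch 3 and litter 4 each hold 1 cKO mouse, F3, which is assumed to vary like the other mice of the fit. In cKO versus dKO the fit with batch as a covariate rests on F3 as well, since batch 1 holds no dKO mouse. Depth limits genes under about 10 CPM, since 3 counts were 7.50 CPM in the shallowest mouse.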
